A study of Mus musculus with 21 samples.

Results

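Nonsense-mediated decay (NMD) is the cytoplasmic pathway that removes mRNAs on which translation ends too early. The genes described here are 9 of its core factors, *Upf1*, *Upf2*, *Upf3a*, *Upf3b*, *Smg1*, *Smg5*, *Smg6*, *Smg8* and *Smg9*, taken by symbol from the 51559 genes of the deposited count tables. All 9 passed the filter on low counts and were tested among 14518 genes. They were followed in mouse embryonic stem cells (ESCs) that are wild type or lack *Ddx6*, a DEAD-box RNA helicase of P-bodies that acts in translational repression and in decay of mRNA from the 5′ end.

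Cells were grown with serum, LIF and 2i, the inhibitors PD0325901 and CHIR99021. The *Ddx6* KO cells are 2 clones made with CRISPR-Cas9 from the parental wild-type line, so a difference between genotypes rests on 2 clones. There were 3 wild-type samples and 2 samples of each clone, here called cultures, and all 7 were labelled with 500 µM 4-thiouridine (4sU) for 30 min. From each culture, biotinylated 4sU RNA (nascent RNA) and total RNA depleted of rRNA (here mRNA) were sequenced. The labels number the cultures within a genotype or clone and do not say how they relate to each other, so p values measure the spread between these samples only.

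In textbook accounts, the helicase UPF1 is drawn to a ribosome that has stopped at a termination codon, and UPF2 and UPF3 proteins bridge it to exon junction complexes left downstream by splicing. The kinase SMG1, with its partners SMG8 and SMG9, then phosphorylates UPF1. Phosphorylated UPF1 recruits SMG6, which cuts the mRNA, and SMG5, which leads to deadenylation and decapping. Several of these factors are themselves encoded by NMD-sensitive mRNAs, through upstream reading frames or long 3′ UTRs, which lets the pathway adjust its own components.

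The members lie on 6 chromosomes and none lies on chromosome 6. In the GRCm38 genome with the Gencode M21 annotation, *Upf1* (ENSMUSG00000058301.8) spans chr8:70331525-70353278 on the minus strand and *Upf2* (ENSMUSG00000043241.14) spans chr2:5951469-6056703 on the plus strand. *Smg1* (ENSMUSG00000030655.15) spans chr7:118131308-118243670 on the minus strand, *Smg5* (ENSMUSG00000001415.10) spans chr3:88336260-88362338 on the plus strand, and *Smg8* (ENSMUSG00000020495.13) spans chr11:87077732-87086774 on the minus strand. No exon of a member overlaps an exon of another annotated gene on the same strand. The principal transcript of *Smg1* is 15557 bases long, with 63 exons and a 3′ UTR of 4233 bases, longer than that of 94.1% of 12100 tested protein-coding genes. *Smg8* is at the other end, with 4 exons and a 3′ UTR of 221 bases, and the median 3′ UTR of the 12100 genes is 1017 bases. No principal transcript of a member carries an exon junction more than 50 bases after its stop codon. Such a junction was found in only 0.380% of the 12100 genes. The annotation marks 1 transcript each of *Smg1*, *Smg5* and *Smg6* as NMD-sensitive, and 28.5% of the 12100 genes have at least 1 such transcript. Counts were made per gene, so isoforms cannot be told apart.

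An ATG upstream of the start codon is present in the 5′ UTRs of *Upf2*, *Smg1*, *Smg5* and *Smg9*, 1 in each, against 51.1% of the 12100 genes with at least 1. In *Upf2* it lies 38 bases before the start codon and opens a frame of 12 codons, and in *Smg1* it lies 20 bases before and opens a frame of 6 codons. In both transcripts the TAA stop of this frame ends on the first base of the start codon. The sequences around these start codons are shown because *Upf2* and *Smg1* are also the members whose mRNA stability fell in the comparison of genotypes. Capitals mark the joined stop and start codons TAATG and, in *Smg1*, the upstream ATG, which in *Upf2* lies outside the window.
Upf2, start codon, plus strand, joined from chr2:5951548-5951553 and chr2:5957471-5957494 across an intron: cactaggttgtcctgggtcacaTAATGcca
Smg1, start codon, chr7:118243285-118243314, minus strand: ggccATGtcgtgtcggggaaggTAATGagc
This arrangement, counted with either TAA or TGA as the stop, was found in 58 of the 12100 genes, or 0.479%. It was noticed after the stability values were seen. The upstream frames of *Smg5*, whose stability rose, and *Smg9*, not called, have 30 and 35 codons and end within the 5′ UTR. Over the 58 genes, the median change in mRNA stability in *Ddx6* KO was -0.03 on the log2 scale, 3 genes were lower at an adjusted p below 0.05 and 3 were higher, where 8.51% of all tested genes were lower and 3.77% higher, and *Upf2* and *Smg1* were among the 3 that were lower.

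DDX6 acts with microRNAs, and a family of ESC-enriched microRNAs from the miR-290 and miR-302 clusters shares a seed. The 3′ UTRs were therefore searched on the transcript strand for the 6 bases GCACTT, the match to bases 2 to 7 of these microRNAs. One of them is shown with its seed, bases 2 to 8, in capitals, and the matches in the members follow with GCACTT in capitals. The microRNA sequence is from RefSeq and the others are from the GRCm38 genome.
mmu-miR-294-3p: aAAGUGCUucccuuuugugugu
Upf2, chr2:6055711-6055738, plus strand: aatgagaaggtGCACTTgactactgagc
Smg1, chr7:118133861-118133888, minus strand: tgccagtgtcgGCACTTtcttaattatg
Smg1, chr7:118133661-118133688, minus strand: tgagggcaattGCACTTtggctctctca
Smg6, chr11:75163567-75163594, plus strand: gtccacatcttGCACTTtgcccttgttt
The 6-base match was found in 3 of 9 members, against 31.2% of the 12100 genes. For the microRNA shown, none of the 9 holds a longer match of 7 or 8 bases. Such a match would also pair its base 8 or have an A opposite base 1. A 7-base match that pairs this base 8 was found in 16.3% of the 12100 genes. Matches to microRNAs of these clusters with another base 8 were not searched for.

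**Figure D1:**
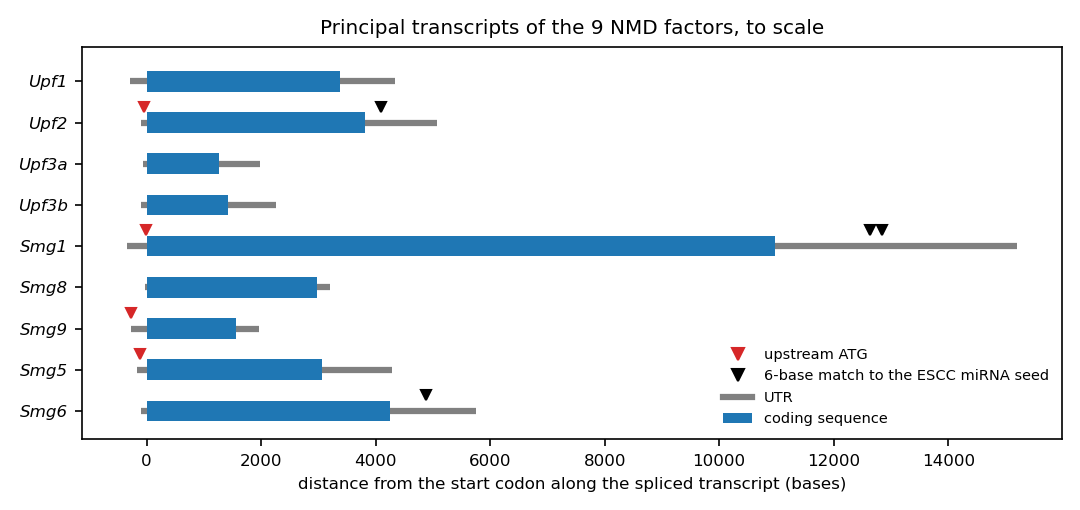
The principal transcript of each member drawn to scale, with the distance from the start codon in bases on the x axis, the coding sequence as a blue bar and UTRs as grey lines. Red triangles mark upstream ATGs, which sit beside the start codon in *Upf2* and *Smg1* and farther upstream in *Smg5* and *Smg9*, and black triangles mark the 6-base matches in *Upf2*, *Smg1* and *Smg6*.

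The summed 4sU libraries held 2441639 to 3570192 counts and the total RNA libraries 5724179 to 7369651. Among the members, the lowest count in a 4sU library was 60, for *Upf3b*, and the lowest in a total RNA library was 162, for *Smg9*. Counts were scaled by TMM, the trimmed mean of M values, and are given as CPM, which are counts scaled to the library. *Ddx6* itself had 334, 384 and 392 CPM in the wild-type total RNA libraries and 57.3, 67.8, 23.1 and 21.5 CPM in *Ddx6* KO, with both lower values in clone 2. Of 6 ESC markers, all passed the filter, with summed levels of 3065 to 3180 CPM in wild-type and 3577 to 3795 CPM in *Ddx6* KO total RNA. *Nanog*, on chromosome 6, moved most, with means of 635 and 957 CPM, while *Sox2* had 469 and 454 CPM. In mRNA 4 of the 6 were higher and 0 lower at an adjusted p below 0.05, where 19.5% of all tested genes were higher and 31.0% lower. Of 7 markers of fibroblasts, endoderm, mesoderm and neural cells only *Col1a1* passed, and the 7 summed to 4.27 to 6.89 CPM in wild type and 5.10 to 7.62 CPM in *Ddx6* KO. *Col1a1* had means of 2.33 and 4.66 CPM and was called higher in mRNA, by 0.97 on the log2 scale (edgeR, adjusted p = 0.00487). Of the markers not tested, *Col1a2*, *Col3a1* and *Pax6* had higher means in *Ddx6* KO, and *Sox17*, *Gata6* and *T* had lower means. In these bulk cultures, fewer cells of a type and less RNA per cell cannot be told apart. Libraries of the same group differed by more than counting noise, with a chi-square per degree of freedom of at least 1.51, so none was taken as a duplicate.

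Levels were compared between members per kilobase of the deposited gene length. In wild-type total RNA, *Smg5* and *Upf1* were highest, at 50.0 and 49.7 TMM-scaled CPM per kilobase (means of 3 cultures, with ranges of 49.0 to 51.6 and 48.6 to 50.9), and these overlapped. *Upf3a* followed at 36.0 ± 1.40 (SD, n = 3) and *Smg1* at 26.6 ± 0.792, each apart from its neighbours. *Upf3b*, *Smg8* and *Upf2*, at 21.6, 21.0 and 19.3, overlapped with one another. *Smg6*, at 14.9 ± 0.302, and *Smg9*, at 12.9 ± 1.09, were lowest. Every member lay above at least 60.8% of the tested genes, and *Upf1* and *Smg5* lay above 87.9% and 88.0% of them.

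The order in wild-type nascent RNA was different. *Smg8* was highest, at 53.3 ± 3.37 TMM-scaled CPM per kilobase (SD, n = 3), and *Smg1* was lowest, at 10.7 ± 1.22. Both positions were apart from their neighbours. *Smg5* was second at 42.8 ± 2.32, and *Upf1*, first or second by mRNA, came after *Upf3a* at 30.5, with a range of 29.5 to 31.7 that overlapped that of *Upf3a*.

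The total-over-4sU ratio, the log2 of total CPM over 4sU CPM of the same culture with 0.5 CPM added to each, follows the relative stability of an mRNA. In wild type it ran from 1.32 ± 0.12 (SD, n = 3) for *Smg1* to -1.34 ± 0.02 for *Smg8*, while the median over all tested genes was 0.08. *Smg1*, the kinase, was at 1.20, 1.44 and 1.33 in the 3 wild-type cultures and lay above 86.6% of the genes. *Smg8*, its regulatory partner, was at -1.33, -1.37 and -1.33 and lay above only 21.6% of the genes.

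Both belong to the same kinase complex and stood apart from all other members, *Smg1* above and *Smg8* below. *Upf1* was next to *Smg1*, at 0.70 ± 0.04, and overlapped with *Upf3b*, at 0.60 ± 0.26. *Smg5*, *Upf3a*, *Smg6*, *Smg9* and *Upf2* lay between 0.22 and -0.06, and each overlapped with the next in this order. The position relative to 0 depends on the common scaling of both kinds of library, and the order is that of ratios within cultures.

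**Figure D2:**
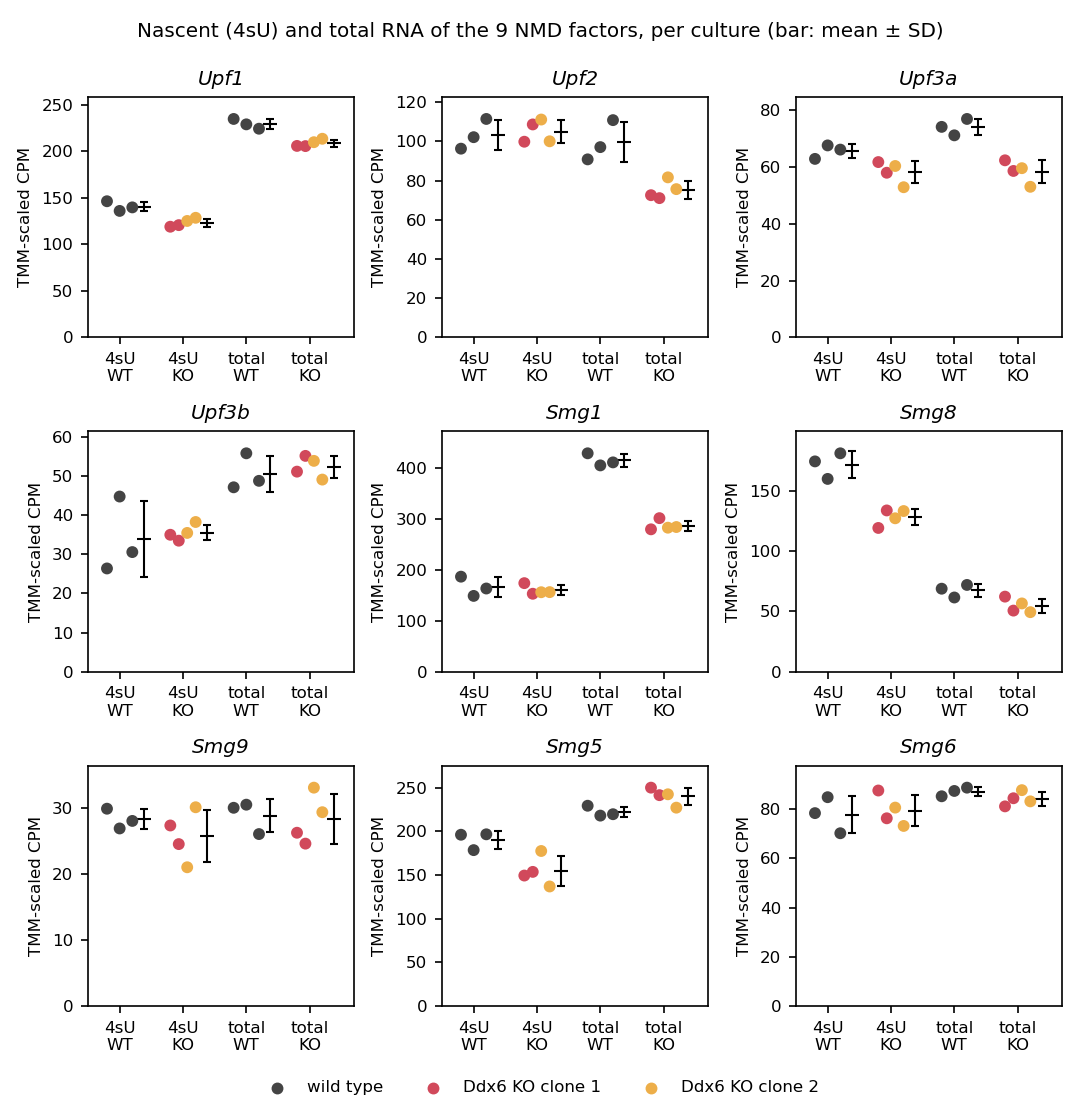
TMM-scaled CPM of each member in every culture (y axis, from 0) by assay and genotype (x axis), with wild type in grey, *Ddx6* KO clone 1 in red and clone 2 in yellow and the mean ± SD as a black bar. *Smg1* and *Upf2* have separated groups in total RNA and overlapping groups in 4sU RNA, while *Smg5* has separated groups in 4sU RNA and overlapping groups in total RNA.

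The comparison of genotypes asked whether the factors of this pathway changed in transcription, in mRNA level or in mRNA stability when *Ddx6* was lost. In nascent RNA, 3 of 9 members were lower in *Ddx6* KO at an adjusted p below 0.05 and 0 were higher, where 21.0% of all tested genes were lower and 20.5% were higher. In mRNA, 5 were lower and 0 were higher, where 31.0% of all genes were lower and 19.5% higher. In mRNA stability, the interaction of genotype and assay, 2 were lower and 1 was higher, where 8.51% of all genes were lower and 3.77% higher. No member was past a second threshold, an absolute log2 fold change above 1 beside the adjusted p, at which 10.9%, 10.1% and 1.08% of the genes were called in nascent RNA, mRNA and stability. No other member had an unadjusted p below 0.05 in edgeR in any of the 3 comparisons, and DESeq2 and limma-voom also gave 0 members higher in nascent RNA or mRNA. The median change of the 9 was -0.12 in nascent RNA, -0.14 in mRNA and -0.01 in stability on the log2 scale, against 0.00, -0.10 and -0.09 over all tested genes. Counts of cultures that do not overlap were 4 of 9 members in nascent RNA, 4 in mRNA and 4 in stability, against 41.7%, 52.4% and 22.9% of all genes.

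Scaling changed the balance of these comparisons. With TMM within each assay, 735 genes were higher and 576 lower in stability, against 548 and 1236 with TMM over all libraries, and in mRNA 3605 were higher and 3497 lower, against 2829 and 4505. With scaling by library size only, the median nascent change over all genes moved from 0.00 to 0.21, the median mRNA change from -0.10 to 0.06, and 5274 genes were higher and 1840 lower in nascent RNA, against 2977 and 3054. Changes of the members are given below as fitted with TMM over all libraries, and the sign of each named call was checked under these scalings.

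**Figure D3:**
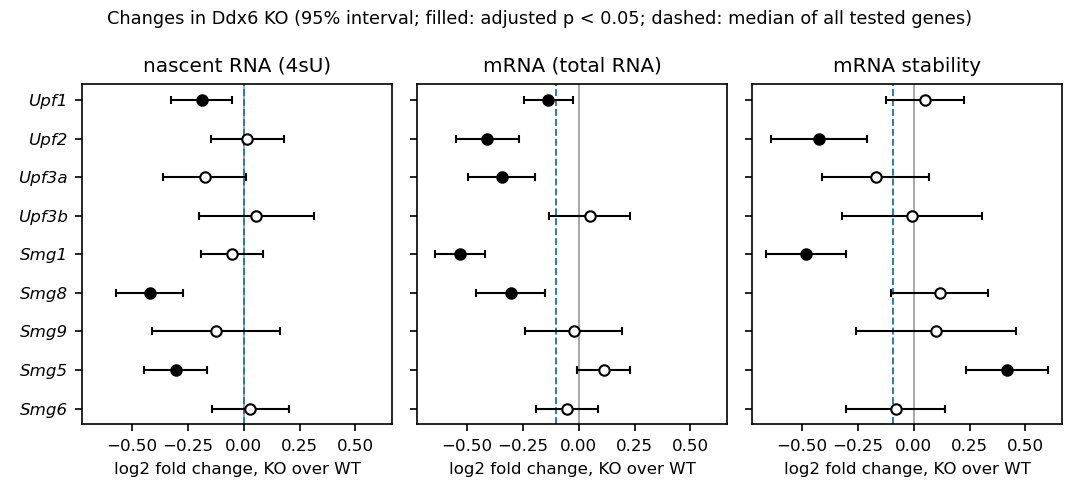
The log2 fold change of each member in *Ddx6* KO over wild type (x axis) in nascent RNA, mRNA and mRNA stability, with its 95% interval, filled where the adjusted p was below 0.05, and the median of all tested genes as a dashed line. *Smg1* and *Upf2* fell in mRNA and stability, *Smg5* fell in nascent RNA and rose in stability, and *Smg8* fell in nascent RNA and mRNA.

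*Upf1*, the central helicase, moved by the smallest amounts that were called. Its nascent RNA was at 146, 136 and 140 CPM in wild type and at 119, 121, 125 and 129 CPM in *Ddx6* KO. Its mRNA was at 235, 229 and 224 CPM in wild type and at 206, 206, 210 and 214 CPM in *Ddx6* KO. The wild-type cultures were above all KO cultures in both assays. The nascent log2 fold change was -0.19 with an SE of 0.07 (edgeR, adjusted p = 0.0252), but it was 0.02 and not called with library size only, where the change relative to the median of all genes was still -0.19. The mRNA log2 fold change was -0.14 with an SE of 0.06 (edgeR, adjusted p = 0.0367), with 0.02 under library size only. Relative to the median mRNA change of all genes, -0.10, it was -0.04. The nascent call was lost in 10 of 18 alternatives and the mRNA call in 14 of 16. The adjusted p over the alternatives, from edgeR or the other tools, ran from 0.00587 to 0.845 for nascent RNA and up to 0.818 for mRNA. Stability of *Upf1* mRNA had a log2 fold change of 0.05, with a 95% interval from -0.12 to 0.23.

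*Upf2*, the scaffold that links UPF1 to UPF3 proteins, was lower in mRNA and in mRNA stability. Its nascent RNA was at 96.3, 102 and 111 CPM in wild type and at 99.9, 109, 111 and 100.1 CPM in *Ddx6* KO. Its mRNA was at 90.9, 97.1 and 111 CPM in wild type and at 72.6, 71.1, 81.7 and 75.7 CPM in *Ddx6* KO. The nascent groups overlapped throughout, while every KO culture was below every wild-type culture in mRNA. The mRNA log2 fold change was -0.41 with an SE of 0.07 (edgeR, adjusted p = 3.1e-06), and it was called under all 16 alternatives.

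The total-over-4sU ratio of *Upf2* was -0.08, -0.07 and -0.01 in wild type and -0.46 and -0.61 in clone 1 and -0.44 and -0.40 in clone 2. The ratio did not overlap between genotypes. The stability change was -0.42 on the log2 scale with an SE of 0.11 (edgeR, adjusted p = 0.00617), a ratio of 0.746 of that in wild type. With clone 2 alone against wild type it was -0.36 with an adjusted p of 0.0847 from edgeR, and with clone 1 alone it was -0.47 with an adjusted p of 0.0149.

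*Upf3a* and *Upf3b* are paralogs that bind UPF2, of which UPF3B is the stronger activator of NMD. *Upf3a* mRNA was at 74.2, 71.2 and 77.0 CPM in wild type and at 62.4, 58.7, 59.6 and 53.1 CPM in *Ddx6* KO, with no overlap. Its mRNA log2 fold change was -0.34 with an SE of 0.08 (edgeR, adjusted p = 0.00013). Its nascent RNA was also lower in every KO culture, at 52.9 to 61.8 CPM against 62.9 to 67.7 CPM, but the change of -0.17 was not called (edgeR, adjusted p = 0.140). Its stability change of -0.17 had a 95% interval from -0.41 to 0.07 (edgeR, adjusted p = 0.421), so the fall in mRNA could not be assigned to nascent RNA or to stability at this precision.

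*Upf3b*, on the X chromosome, was not called in any comparison. Its mRNA was at 47.1, 55.8 and 48.8 CPM in wild type and at 51.1, 55.1, 53.9 and 49.1 CPM in *Ddx6* KO. The mRNA log2 fold change was 0.05, with a 95% interval from -0.13 to 0.23. Wild-type nascent RNA was widely spread, at 26.4, 44.8 and 30.6 CPM, on counts of 60 to 123, so its stability change of -0.01 had an interval from -0.32 to 0.30.

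*Smg1*, the kinase that phosphorylates UPF1, had the largest change in mRNA among the 9. Its nascent RNA was at 187, 149 and 163 CPM in wild type and at 174, 153, 156 and 156 CPM in *Ddx6* KO. Total RNA gave 428, 405 and 410 CPM in wild type and at 279, 301, 282 and 284 CPM in *Ddx6* KO. Nascent levels overlapped, and in mRNA all 4 KO cultures were far below the wild-type range.

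The nascent log2 fold change of *Smg1* was -0.05, with a 95% interval from -0.19 to 0.09. The mRNA log2 fold change was -0.53 with an SE of 0.06 (edgeR, adjusted p = 8.3e-12), or 0.692 of the wild-type level. Its total-over-4sU ratio of 1.20 to 1.44 in wild type was at 0.68 and 0.97 in clone 1 and at 0.85 and 0.86 in clone 2, with no overlap. The stability change was -0.48 with an SE of 0.09 (edgeR, adjusted p = 0.000136), and over 19 alternatives it ran from -0.57 to -0.35 and stayed below an adjusted p of 0.05. In *Ddx6* KO, *Smg1* still had the highest ratio of the 9, at 0.84 ± 0.12 (SD, n = 4), but its range now overlapped that of *Upf1*.

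*Smg8*, a regulator of SMG1, was lower in both assays. Its nascent RNA was at 174, 160 and 181 CPM in wild type and at 119, 134, 127 and 133 CPM in *Ddx6* KO, with no overlap. Its mRNA was at 68.8, 61.5 and 71.9 CPM in wild type and at 62.3, 50.7, 56.6 and 49.4 CPM in *Ddx6* KO, where 1 KO culture reached into the wild-type range. The nascent log2 fold change was -0.42 with an SE of 0.08 (edgeR, adjusted p = 8.4e-06), the largest among the members, and the mRNA log2 fold change was -0.30 with an SE of 0.08 (edgeR, adjusted p = 0.000992). With library size only, the mRNA change was -0.15 and was not called (edgeR, adjusted p = 0.118). The stability change was 0.12, with a 95% interval from -0.10 to 0.33.

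*Smg9*, the other partner of SMG1, was not called in any comparison. Its mRNA had 28.9 ± 2.45 CPM in wild type (SD over 3 cultures) and 28.3 ± 3.74 CPM in *Ddx6* KO (SD over 4), which gave a log2 fold change of -0.02 with an interval from -0.24 to 0.19. It had the lowest CPM of the members in both assays, on 68 to 252 counts per library, and its intervals were the widest, reaching from -0.26 to 0.46 for stability. The 3 genes of the kinase complex thus differed in where they changed, with *Smg1* called in stability and mRNA, *Smg8* called in nascent RNA and mRNA, and *Smg9* called in none. These differences between genes were not tested.

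*Smg5*, the adaptor that binds phosphorylated UPF1, was the only member with a rise in mRNA stability. Its nascent RNA was at 196, 179 and 197 CPM in wild type and at 149, 154, 178 and 137 CPM in *Ddx6* KO. In mRNA it was at 229, 218 and 220 CPM in wild type and at 250, 242, 242 and 227 CPM in *Ddx6* KO. The KO cultures were below wild type in nascent RNA, by a small gap in clone 2 culture 1, while in mRNA 3 of 4 were above all wild-type cultures.

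The nascent log2 fold change of *Smg5* was -0.30 with an SE of 0.07 (edgeR, adjusted p = 0.000404). With library size only it was -0.10 and not called (edgeR, adjusted p = 0.260), although relative to the median of all genes it was still -0.30. The mRNA log2 fold change was 0.11 with an SE of 0.06 (edgeR, adjusted p = 0.121), and it was called as a rise in 6 of 16 alternatives, with values up to 0.27. Its total-over-4sU ratio was 0.23, 0.29 and 0.16 in wild type and 0.74, 0.65, 0.45 and 0.73 in *Ddx6* KO, with no overlap. The stability change was 0.42 with an SE of 0.09 (edgeR, adjusted p = 0.00145), or 1.33 times the wild-type ratio, and over 19 alternatives it ran from 0.37 to 0.51 and stayed below an adjusted p of 0.05. *Smg5* moved from above 54.1% of all genes by this ratio in wild type to above 71.9% in *Ddx6* KO.

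*Smg6*, the endonuclease, was not called in any comparison. In mRNA it had 85.1, 87.3 and 88.6 CPM in wild type and at 81.0, 84.3, 87.6 and 83.1 CPM in *Ddx6* KO, which overlapped. The log2 fold changes were 0.03 in nascent RNA, -0.05 in mRNA and -0.08 in stability, the last with a 95% interval from -0.30 to 0.14. Stability was thus called higher in 1 of the 2 effectors, *Smg5*, and the interval of *Smg6* includes 0.

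**Figure D4:**
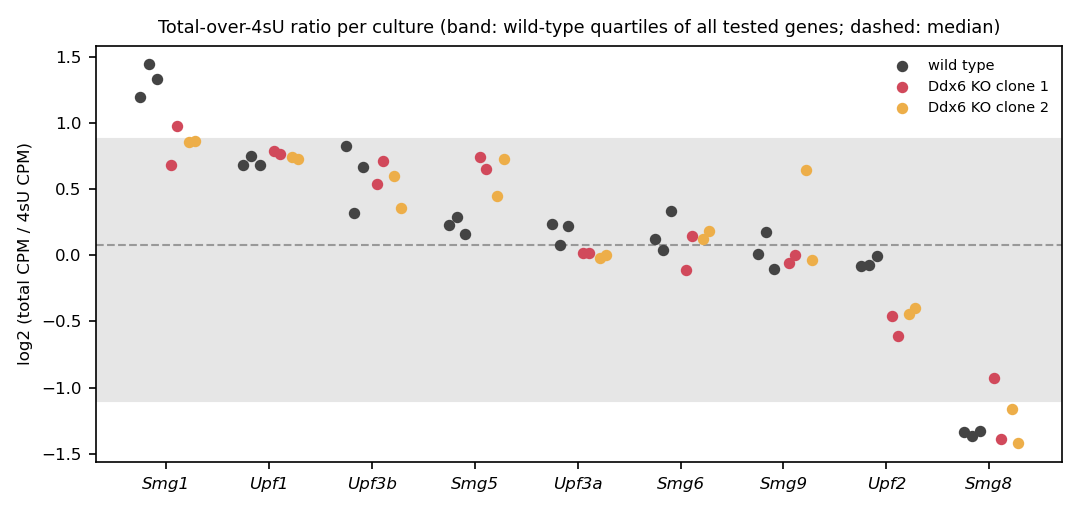
The log2 of total CPM over 4sU CPM (y axis) of each member in each of the 7 cultures, ordered by the wild-type mean, with the quartiles of all tested genes in wild type as a grey band. *Smg1* starts above the band at 1.20 to 1.44 and falls to 0.68 to 0.97, *Upf2* falls from about the median, *Smg5* rises, and *Smg8* lies below the band in all wild-type cultures.

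The 2 clones were compared with each other within each measure. None of the 27 tests on members passed an adjusted p of 0.05 in edgeR, and 1 had an unadjusted p below 0.05, where 0.165%, 0.296% and 0.00689% of all genes were called in nascent RNA, mRNA and stability. That test was *Smg9* mRNA, 0.30 higher in clone 2 on the log2 scale with an SE of 0.14 (edgeR, adjusted p = 0.685). For the members called in stability, the difference of clone 2 minus clone 1 was 0.03 (SE 0.12) for *Smg1*, 0.12 (SE 0.14) for *Upf2* and -0.11 (SE 0.12) for *Smg5*. With 2 cultures per clone, differences of this size were not separable from 0.

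Over the 14 libraries, the tested genes whose log2 CPM followed *Upf1* most closely were *Sars*, *Calm3* and *Lars*, with Pearson's r of 0.997, 0.995 and 0.995. The libraries include both assays of each culture, so the step from 4sU to total RNA contributes to these values, and they are given as a description.

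Further genes of the pathway were taken from a list of 17 partners, among them the exon junction complex, the release factors, the cap-binding proteins and RUVBL helicases that assemble the SMG1 complex. All 17 were tested. In nascent RNA 3 were higher and 6 lower, where 20.5% of all tested genes were higher and 21.0% lower. In mRNA 2 were higher and 9 lower, against 19.5% and 31.0% of all genes. In stability 2 were higher and 2 lower, against 3.77% and 8.51%, with a median stability change of -0.12 on the log2 scale beside -0.09 over all genes. *Pnrc2*, an adaptor between UPF1 and decapping, rose in stability by 0.69 with an SE of 0.09 (edgeR, adjusted p = 1.5e-07), with a nascent change of -0.65 and an mRNA change of 0.04. *Gspt2*, a paralog of release factor eRF3, rose in stability by 0.65 with an SE of 0.16 (edgeR, adjusted p = 0.0045). *Ruvbl2* fell in stability by 0.36 with an SE of 0.10 (edgeR, adjusted p = 0.0131) and in mRNA by 0.53.

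*Ruvbl1* had a stability change of -0.62 with an SE of 0.16 (edgeR, adjusted p = 0.00585) with a nascent rise of 0.92. It lies on chromosome 6, whose 735 tested genes had a median nascent change of 0.53 and a median mRNA change of 0.43 in *Ddx6* KO. The 2 partners called higher in mRNA were *Ruvbl1*, at 0.30, and *Magohb*, at 0.50, which also lies on chromosome 6. *Magohb* had 32 to 85 counts per total RNA library, and its mRNA call was lost in 7 alternatives. The part of chromosome 6 in the values of these 2 genes was not tested. With scaling by library size only, 7 of the 17 partners were higher and 3 lower in nascent RNA, and 6 were higher and 5 lower in mRNA. With culture as a replicate block, 4 were lower in stability and 2 higher. The number lower in stability ran from 0 to 4 over the alternatives, and the number higher was 2 or 3. Without wild-type culture 3, 5 partners were higher in nascent RNA and 4 were lower in stability, and without wild-type culture 1 or 3, 1 was higher in mRNA. The stability call of *Ruvbl2* was lost in 4 of 19 alternatives and that of *Ruvbl1* in 2, in both cases with the re-sequencing run alone and with clone 1 only.

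Transcripts known as natural targets of NMD were followed as a second list, with snoRNA host RNAs and stress genes. All 11 were tested, and in stability 0 were called in edgeR, 4 had an unadjusted p below 0.05, and DESeq2 and limma-voom also called 0, while 4 of the 19 alternatives called 1 gene. The median stability change was 0.11 on the log2 scale, against -0.09 over all tested genes. In nascent RNA 9 were lower and 2 higher, where 21.0% of all tested genes were lower and 20.5% higher, and in mRNA 7 were lower and 1 higher, where the shares were 31.0% and 19.5%. The number higher in nascent RNA was 1 with DESeq2, limma-voom, either sequencing run alone, clone 2 only and no chromosome 6 genes. It was also 1 when wild-type culture 1 or 2, either culture of clone 1 or culture 1 of clone 2 was left out. *Gas5*, a snoRNA host RNA, fell by 1.07 in nascent RNA and by 1.15 in mRNA, with SEs of 0.05 and 0.06 (edgeR, adjusted p = 4.4e-25 and 3.4e-25), with a stability change of -0.08 (SE 0.08). *Snhg12*, another host RNA, fell by 1.37 and 1.18 (SE 0.06 and 0.09), with a stability change of 0.20 (SE 0.11).

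The genes of this list with the smallest adjusted p for stability were *Gadd45b* at 0.36, *Tbl2* at -0.28, *Ddit3* at 0.52 and *Atf3* at 0.34 (edgeR, adjusted p = 0.101, 0.109, 0.141 and 0.164). *Gadd45a*, named after its values were seen as the gene that rose in both assays, was 1.51 higher in nascent RNA and 1.84 higher in mRNA and lies on chromosome 6.

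In SR protein and related splicing factor genes, alternative splicing, often inclusion of a poison exon, makes an NMD-sensitive isoform. A list of 9 such genes was followed. In stability 4 were higher and 0 lower, where 3.77% of all tested genes were higher and 8.51% lower. The median was 0.05, against -0.09 over all genes, and the count was 4 and 0 under all 19 alternatives. *Srsf1* had a stability change of 0.64 with an SE of 0.07 (edgeR, adjusted p = 9.4e-10), with a nascent change of -0.64 and an mRNA change of 0.00. *Srsf6*, *Srsf2* and *Srsf5* had stability changes of 0.43, 0.39 and 0.34 (edgeR, adjusted p = 3.1e-05, 0.000615 and 0.00218) with nascent changes of -0.56, -0.49 and -0.48. In nascent RNA 7 of the 9 were lower and 1 higher, against 21.0% and 20.5% of all genes. In mRNA 5 were lower and 1 higher, against 31.0% and 19.5%. The gene called higher in both assays was *Ptbp2*. The number lower in mRNA was 3 under 12 of 18 alternatives, among them DESeq2, TMM within each assay, library size only and each clone alone. These 12 include leaving out wild-type culture 3, culture 2 of clone 1 or either culture of clone 2. As in *Smg5*, the genes called in stability had lower nascent RNA and an mRNA change of smaller size. Stability and the nascent change share the 4sU libraries, so these values are not independent.

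**Figure D5:**
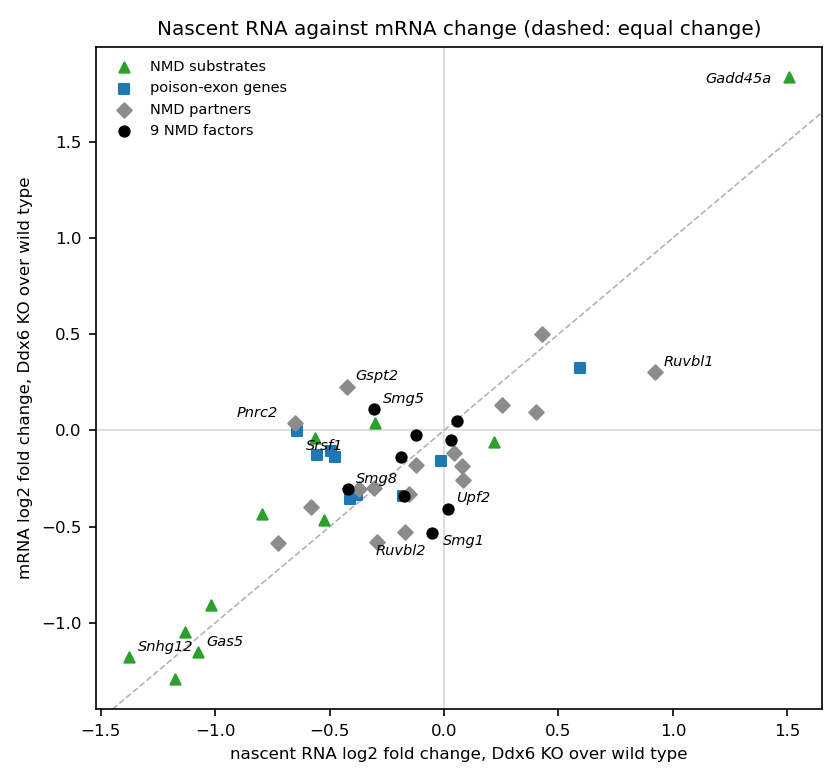
The nascent RNA log2 fold change (x axis) against the mRNA log2 fold change (y axis) in *Ddx6* KO over wild type for the 9 NMD factors and the 3 lists, with a dashed line where both are equal. *Smg5*, *Pnrc2*, *Gspt2* and *Srsf1* lie above the line, *Smg1*, *Upf2*, *Ruvbl1* and *Ruvbl2* lie below it, and *Gas5* and *Snhg12* lie close to it at the lower left.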

How the data were processed

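Per the submitters' processing notes and the file headers, reads were trimmed (cutadapt 1.14) and mapped to mm10, which is GRCm38 (STAR 2.5.3a), and unique alignments were counted by gene on the reverse strand (featureCounts 1.5.3, Gencode M14). The authors deposited raw counts per gene for a single-end run of all 14 libraries and for a re-sequencing run of the 7 4sU libraries, and the runs were added for each 4sU library. Gene length in bases was also deposited. ERCC rows, 92 in all, held 0 counts, so no spike-in scale was available and all changes are relative.

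The filter required 3 CPM or more in 3 or more libraries. After TMM scaling across the 14 libraries, edgeR 4.0.16 (R 4.3.3) was used for the robust quasi-likelihood test. One model held genotype, assay and their interaction, which gives the stability change, and p values were adjusted by Benjamini-Hochberg over all 14518 genes. Intervals are the estimate ± 1.96 SE. Levels and ratios used TMM-scaled CPM, with a pseudocount of 0.5 CPM in ratios. The main fit was checked on simulated counts with 200 planted stability changes, all larger than those of the members. Past both thresholds, 197 of the 200 and 5 other genes were called in stability. Changes of the size seen in the members were not simulated. Alternatives were DESeq2 1.42.0, limma-voom (limma 3.58.1), other scalings and filters, each run alone, blocks, each clone alone, each culture left out and no chromosome 6 genes.

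The members, the lists and the tests were chosen with earlier results of these data known. Members are all reported. From each list the genes with the smallest adjusted p were named, up to 4 for stability and up to 2 for nascent RNA or mRNA, and for *Upf1* the 3 genes with the highest r. *Magohb*, *Gadd45a* and *Ptbp2* were named outside this rule, as genes called higher in mRNA, while most genes called lower were not named. Features were read from the principal transcript in Gencode M21. Per the labels, labelled RNA was split into 4sU and total RNA, which pairs the libraries of a culture. Their deviations from the group mean had correlations of 0.00353 to 0.0218 in wild type and 0.0947 to 0.125 in *Ddx6* KO. The KO mean pools both clones, so a difference between clones can enter the KO values. The fit without culture as a block is reported, with the blocked value beside it where a count moved.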

Additional observations from a re-analysis of the deposited data

Results flagged for a closer look

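Among the 4 *Ddx6* KO cultures, the highest or lowest value of each member was compared with its nearest neighbour, relative to the whole range, by Dixon's test in nascent RNA, mRNA and the total-over-4sU ratio. Of the 27 groups examined 2 were past the 95% critical value, where chance gives about 1 in 20, or 1.35.

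For *Smg9*, clone 2 culture 1 had a total-over-4sU log2 ratio of 0.64, while the lowest of the 4 was -0.06. In that culture *Smg9* had 21.0 CPM in 4sU RNA on 70 counts, and 33.1 CPM in total RNA. Without this culture the stability change of *Smg9* was -0.07 and was not called (adjusted p = 0.878 from edgeR), against 0.10 with it.

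For *Smg1*, clone 1 culture 1 had 7.45 log2 CPM in 4sU RNA, while the lowest of the 4 was 7.26. Its stability change stayed within -0.54 and -0.42 with each culture left out.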

How the results depend on the processing

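The stability calls of *Smg1* and *Smg5* were made under all 19 alternatives, and that of *Upf2* under 18. With clone 2 only, 1 member was lower in stability instead of 2. With library size only, 2 members were higher and 1 lower in nascent RNA, and 3 were lower in mRNA. The number of members higher in mRNA, 0 as reported, was 1, *Smg5*, with library size only, TMM within each assay, no filter beyond 1 count, clone 1 only and without chromosome 6 genes, and 0 to 1 with each culture left out, where it was 1 without clone 2 culture 2. Members lower in mRNA were 4 to 5 and in nascent RNA 2 to 3 with each culture left out.

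Changes of sign were found for *Upf1*, a call in both assays, and otherwise only in values that were not called. With library size only the nascent log2 fold change was 0.019 for *Upf1*, 0.031 for *Upf3a*, 0.15 for *Smg1* and 0.083 for *Smg9*, and the mRNA change was 0.021 for *Upf1*, 0.11 for *Smg6* and 0.13 for *Smg9*. With TMM within each assay, mRNA was 0.042 for *Smg6* and 0.069 for *Smg9*, and stability 0.082 for *Upf3b* and 0.0097 for *Smg6*. With no filter beyond 1 count, nascent RNA was 0.0056 for *Smg1*, mRNA 0.051 for *Smg6* and 0.079 for *Smg9*, and stability 0.039 for *Upf3b*. DESeq2 gave nascent RNA of -0.015 for *Upf2* and -0.0026 for *Smg6*, mRNA of 0.00055 for *Smg9* and stability of 0.047 for *Upf3b*. With the single-end run alone, nascent RNA was 0.049 for *Smg1* and 0.033 for *Smg9*, and stability -0.044 for *Smg9*. With the re-sequencing run alone, *Upf3b* was at -0.14 in nascent RNA and 0.19 in stability. Clone 1 only gave stability of 0.084 for *Upf3b* and -0.053 for *Smg9*, and clone 2 only gave nascent RNA of -0.011 for *Smg6* and mRNA of 0.13 for *Smg9*. Without chromosome 6 genes, *Smg9* mRNA was 0.0069. The cause of these shifts was not tested. With each culture left out, nascent RNA ran from -0.032 to 0.072 for *Upf2*, -0.083 to 0.31 for *Upf3b*, -0.13 to 0.031 for *Smg1* and -0.047 to 0.097 for *Smg6*. In the same way *Smg9* mRNA ran from -0.096 to 0.054, and stability from -0.19 to 0.085 for *Upf3b*, -0.15 to 0.0086 for *Smg6* and -0.068 to 0.18 for *Smg9*.

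With replicate number as a block, 3 members were lower in nascent RNA and in stability 2 were lower and 1 higher, and with culture as a block the stability counts were the same, so the replicate block changed no stability call. Same-numbered libraries of different groups had correlations of -0.0382 to 0.0886, and the 2 libraries of a culture had 0.00353 to 0.125. Over both genotypes together these ranges overlap, so the correlations cannot tell whether equal numbers mark anything shared. The counts behind *Upf3b* and *Smg9* limit what can be said of their stability.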
